A study of Mus musculus with 12 samples.

Results

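AP-1 transcription factors were described by 10 gene symbols, chosen by name: the Fos family (Fos, Fosb, Fosl2), the Jun family (Jun, Junb, Jund), their partners Atf2, Atf3 and Atf7, and Jdp2. These symbols are listed as 23 RefSeq transcripts, out of 24452 symbols and 35840 transcripts in all. RNA of whole somatosensory cortex was sequenced from male C57BL/6 mice at postnatal day 7, in 4 groups of 3 libraries. WT mice and mice with a targeted disruption of Trp53, the p53 gene, in every cell of the body (p53 KO) received intraperitoneal saline or ethanol, and brains were taken 8 h after the second injection. Total counts were between 719735 (KO ethanol replicate 12) and 17066392 (KO saline replicate 8), and replicates are named by library number. WT saline replicate 3 (1953154 counts) was the next shallowest, and both have library names that open with L, whereas the other 10 open with P. All 7 markers of cortical excitatory neurons were above 0 in every library.

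AP-1 is a dimer of basic leucine zipper (bZIP) proteins. Fos proteins need a Jun partner, whereas Jun proteins also pair with each other and with Atf proteins, and the dimers bind the AP-1 site or the related cyclic AMP response element (CRE). Many Fos and Jun genes are immediate early genes, switched on within minutes of synaptic activity or stress, and phosphorylation of Jun by JNK kinases is a known step in neuronal apoptosis. Jdp2, Jun dimerization protein 2, binds the same sites as a dimer with Jun or Atf2 and mostly represses them, and the p53 gene is among those it has been found to repress.

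The sequence just upstream of a start site is shown for Jdp2, whose transcripts differ only in where they begin, and for Fos and Jun, which had the largest fitted increases of the 9 tested members after ethanol in WT mice. The sequences are from RefSeq on GRCm38.p6, in lower case, and the capitals mark matches to the 5 motifs searched. Those were the AP-1 site TGAGTCA, the CRE TGACGTCA, the variant TGACATCA, TGACGT (the first bases of the CRE, contained in it) and the CArG box, each on both strands of the 250 bases before a start site.
Jdp2 before NM_001205052 (chr12:85598855-85599026, plus strand): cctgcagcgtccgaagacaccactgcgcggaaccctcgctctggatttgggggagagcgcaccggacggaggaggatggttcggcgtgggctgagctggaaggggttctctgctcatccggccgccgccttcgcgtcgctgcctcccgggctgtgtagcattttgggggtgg
Jdp2 before NM_001205053 (chr12:85599768-85600017, plus strand): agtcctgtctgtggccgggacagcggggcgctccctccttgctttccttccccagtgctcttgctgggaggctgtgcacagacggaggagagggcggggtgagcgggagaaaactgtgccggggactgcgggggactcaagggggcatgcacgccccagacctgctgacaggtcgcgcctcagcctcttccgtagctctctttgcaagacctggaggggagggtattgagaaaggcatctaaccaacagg
Fos (chr12:85473640-85473889, plus strand): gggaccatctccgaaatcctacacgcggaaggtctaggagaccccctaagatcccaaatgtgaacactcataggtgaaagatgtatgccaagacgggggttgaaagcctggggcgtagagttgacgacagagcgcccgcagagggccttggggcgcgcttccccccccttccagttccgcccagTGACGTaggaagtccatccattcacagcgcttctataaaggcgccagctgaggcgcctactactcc
Jun (chr4:95052223-95052472, minus strand): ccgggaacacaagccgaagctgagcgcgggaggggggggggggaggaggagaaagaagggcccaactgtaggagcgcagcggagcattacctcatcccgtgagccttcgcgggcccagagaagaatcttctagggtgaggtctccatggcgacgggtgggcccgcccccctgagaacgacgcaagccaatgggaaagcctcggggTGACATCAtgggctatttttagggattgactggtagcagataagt
TGACATCA was matched in 1 of the 12 member windows (Jun, its first base at position -45 from the start site) and in 2.93% of 32851 mouse windows of that length. TGACGT was matched in 3 windows (Fos at -66, Atf3 at -8 and Jdp2 NM_030887) and in 6.47% of all windows. None of the 12 windows held the AP-1 site, the full CRE or the CArG box, which were matched in 4.46%, 1.55% and 1.47% of all windows. Bases further upstream were not searched, so these motifs may lie there. The first Jdp2 stretch ends where the annotated first exon begins, and it is overlapped on the opposite strand by the long noncoding RNA Gm47863.

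The members covered a wide range of levels per transcript length. By the deposited RPKM summed over a symbol's transcripts, the mean over the 12 libraries was highest for Atf2 (21.8 ± 5.96, SD, n = 12), followed by Jund (12.1 ± 7.24), Jun (8.57 ± 4.21) and Jdp2 (7.26 ± 1.60). Junb (4.98 ± 2.22), Fosl2 (3.37 ± 1.30), Atf7 (2.17 ± 0.826) and Fos (2.07 ± 1.95) came next. Atf3 (0.352 ± 0.281) and Fosb (0.113 ± 0.0965) were the lowest. Atf2 was above Jund in 11 of 12 libraries, Jdp2 above Junb in 11 and Fos above Atf3 in 11, whereas Jund exceeded Jun in 8 and Jun exceeded Jdp2 in 8, so the order of those neighbours did not hold beyond their spread. The interval of Jund in the files spans 2878 bases, whereas the matched annotation gives 1668. On another scale that uses the annotated length, normalized CPM per kilobase, its mean was 23.3. The other members are not given on that scale, so 23.3 cannot be ranked against the RPKM means above.

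The first question was whether ethanol changed AP-1 genes in WT cortex. Fos, the partner that defines the classical AP-1 dimer, rose, and it was the only member that passed the test in WT ethanol versus saline. In normalized CPM, which are counts per 1000000 of the TMM-scaled library size, Fos was 2.76, 0 and 2.90 in WT saline replicates 1, 3 and 13. It was 18.5, 5.37 and 3.69 in WT ethanol replicates 4, 5 and 14. The groups did not overlap, but replicate 4 had 327 raw counts against 58 and 21 in the other two, and the 0 in WT saline replicate 3 allows up to 1.54 CPM (3 counts). The log2 fold change was 2.11 (standard error 0.77, unadjusted p = 0.0155, adjusted p = 0.212 in edgeR). Without WT ethanol replicate 4 it was 1.05 (unadjusted p = 0.173, adjusted p = 0.591 in edgeR), and it no longer passed. Of the 9 members tested, 1 passed at an unadjusted p under 0.05, against 18.3% of all 14739 symbols, so the members' share was not above the background. The median log2 fold change of the 9 was 0.36, beside 0.06 over all symbols.

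WT ethanol replicate 4 also stood apart in cell type markers. Its summed choroid plexus markers reached 5019 normalized CPM, its astrocyte markers 1879, the highest of the 12 libraries in both, and its excitatory neuron markers 327, the lowest. The choroid plexus sum (5 of 5 genes listed, each at 0 in at least 1 library) was 3.60 to 120 in WT saline, 22.1 to 5019 in WT ethanol, 24.4 to 2251 in KO saline and 0 to 2216 in KO ethanol libraries. The excitatory neuron sum was 918 to 1352, 327 to 1056, 962 to 1201 and 782 to 881 in the same order. KO saline replicate 9 and KO ethanol replicate 18, with choroid plexus sums of 2251 and 2216, had Fos at 4.65 and 4.12. The blood cell sum (4 of 4 genes above 0 in all libraries) was 235 to 1159 in WT saline, 42.8 to 126 in WT ethanol, 31.7 to 81.03 in KO saline and 24.6 to 623 in KO ethanol libraries. WT saline therefore lay above WT ethanol and above KO saline without overlap, and the highest KO ethanol value was that of replicate 12. The part of tissue composition, blood included, was not tested for Fos or for any difference from WT saline given here. In bulk cortex, fewer cells of a type and less RNA per cell cannot be told apart.

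**Figure D1:**
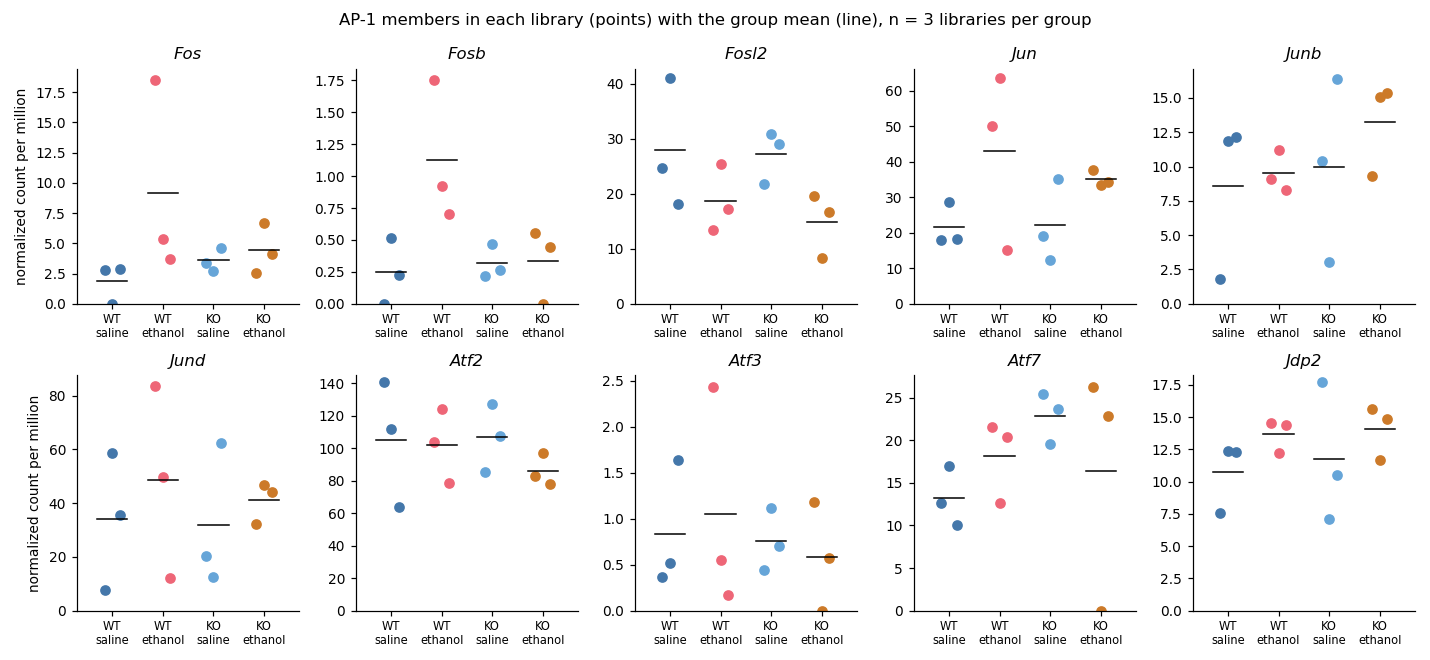
Normalized CPM (vertical axes, each from 0) of the 10 AP-1 members in each of the 12 libraries, with a panel per gene, a point per library and a line at the group mean (n = 3). Fos and Fosb are the panels in which the WT ethanol points lie wholly above the WT saline points, whereas in the deposited RPKM both overlapped. The highest Fos point, 18.5, is WT ethanol replicate 4.

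Fosb, the second Fos protein, was close to the limit of detection. It had 0, 1 and 3 raw counts in WT saline and 31, 10 and 4 in WT ethanol libraries, or 0 to 0.514 and 0.703 to 1.76 normalized CPM. The groups did not overlap in normalized CPM. In the deposited RPKM they overlapped, at 0, 0.287 and 0.0671 in WT saline and 0.266, 0.202 and 0.157 in WT ethanol. The 0.287 of WT saline replicate 3 rests on 1 raw count. In KO mice the normalized CPM were 0.221 to 0.468 under saline and 0 to 0.553 after ethanol, and these overlapped. Fosb failed the filter on low counts, so it has no test among the 9. With every symbol that had at least 1 count in any library included, its log2 fold change in WT mice was 2.50 (standard error 1.01, unadjusted p = 0.0224, adjusted p = 0.234 in edgeR). Its counts were highest in WT ethanol, so passing a filter on low counts depends on that group, and fits in which it passed such a filter are no further support.

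Fosl2, which encodes Fra-2, a Fos protein without a strong activation domain, did not pass in any contrast. It was 24.6, 41.1 and 18.2 normalized CPM in WT saline and 13.4, 25.4 and 17.2 in WT ethanol libraries, which overlapped. It was 21.8, 30.9 and 29.1 in KO saline and 19.6, 8.36 and 16.6 in KO ethanol libraries, so every KO ethanol library was below every KO saline library. Its log2 fold change was -0.57 (standard error 0.42) in WT and -0.79 (standard error 0.42, unadjusted p = 0.0796, adjusted p = 0.999 in edgeR) in KO mice. With each library's trends in transcript length and GC content removed, the WT value was -1.17 and passed at an unadjusted p = 0.0103 (adjusted p = 0.197 in edgeR).

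Jun had the second largest fitted increase of the 9 tested members in WT mice but did not pass. It was 18.0, 28.8 and 18.3 normalized CPM in WT saline and 50.2, 63.7 and 15.3 in WT ethanol libraries. WT ethanol replicate 14 was the lowest of the 6, so the groups overlapped. The log2 fold change was 1.01 (standard error 0.50, unadjusted p = 0.0629, adjusted p = 0.293 in edgeR). Without replicate 14 it was 1.36 and passed at an unadjusted p = 0.00907 (adjusted p = 0.265 in edgeR), and it also passed without WT saline replicate 3, at 1.19, a fit in which 31.7% of all symbols passed. In KO mice Jun was 19.2, 12.5 and 35.3 under saline and 37.6, 33.4 and 34.4 after ethanol. The ethanol libraries lay close together, and 1 of the saline libraries lay among them. The log2 fold change there was 0.66 (standard error 0.50, unadjusted p = 0.206, adjusted p = 0.999 in edgeR).

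Junb and Jund, the other Jun proteins and weaker activators than Jun, varied more within groups than between them. Junb was 1.84, 11.8 and 12.2 in WT saline, 9.06, 11.2 and 8.26 in WT ethanol, 10.4, 3.05 and 16.4 in KO saline and 9.32, 15.04 and 15.4 normalized CPM in KO ethanol libraries. Jund was 7.72, 58.6 and 35.7, then 83.7, 49.8 and 12.1, then 20.4, 12.5 and 62.6, and then 32.4, 46.8 and 44.2 in the same order. All groups overlapped for both genes. Both are rich in G and C (62.6% and 67.1% of the transcript), and Junb was lowest in WT saline replicate 1 and KO saline replicate 8, the libraries in which GC-rich symbols were lowest as a class. The median log2 deviation of the top 20% minus the bottom 20% of symbols by GC content was -1.27 and -1.02 in those libraries, against -0.34 to 0.79 in the other 10. Jund was lowest in WT saline replicate 1, followed by WT ethanol replicate 14, where that value was -0.26. The part of GC content in the spread was not tested. The 2 Jund transcripts had the same count in each library, an even split that gives no information on either one.

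**Figure D2:**
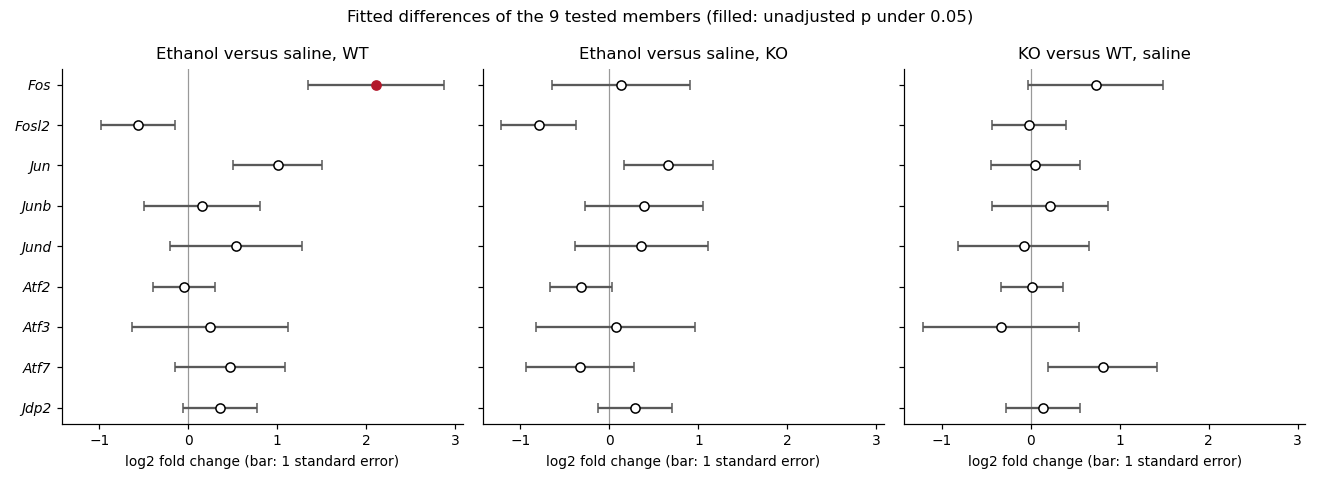
Log2 fold changes (horizontal axis) of the 9 tested members in 3 contrasts, with bars of 1 standard error from edgeR, and filled where the unadjusted p was under 0.05. Fos in WT ethanol versus saline, at 2.11, is the filled point, and Jdp2 lies between 0.14 and 0.36 in the 3 panels.

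In p53 KO mice the ethanol contrast gave no member at an unadjusted p under 0.05 in edgeR (0 of 9, against 3.15% of all symbols, and 0 with DESeq2 and with limma). Fos was 3.39, 2.69 and 4.65 normalized CPM in KO saline replicates 7, 8 and 9. KO ethanol replicates 10, 12 and 18 gave 2.53, 6.69 and 4.12, which overlapped the saline values at both ends. The 6.69 rests on 4 raw counts in the shallowest library. The log2 fold change of Fos was 0.13 (standard error 0.78), and without KO ethanol replicate 12 it was -0.10. The genotypes' ethanol effects on Fos differed by a log2 value of -1.98 (standard error 1.09, unadjusted p = 0.0893, adjusted p = 0.402 in edgeR), which did not pass. The interaction gave 0 of 9 members in edgeR, against 15.2% of all symbols, and 0 with DESeq2, so an ethanol effect on AP-1 genes that depends on p53 was not shown. With library sizes that were not TMM-scaled, the Fos interaction was -2.56 (unadjusted p = 0.0340, adjusted p = 0.283 in edgeR) and passed, while the median of all symbols moved by -0.41 in that contrast.

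The genotype contrasts gave no member either. Under saline 0 of 9 passed in edgeR and in DESeq2, against 19.6% of all symbols, and after ethanol 0 of 9, against 3.24%. The log2 fold changes of KO versus WT mice were -0.33 (Atf3) to 0.81 (Atf7) under saline, and -1.25 (Fos) to 0.45 (Junb) after ethanol. The Fos value after ethanol had a standard error of 0.78 (unadjusted p = 0.132, adjusted p = 0.982 in edgeR), and without the 2 libraries named with L it was -1.47 and passed at an unadjusted p = 0.0433 (adjusted p = 0.712 in edgeR), as did 6.35% of all symbols.

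Atf3, a stress-induced repressor, was barely detected, with 132 raw counts over the 12 libraries. It was 0.367 to 1.63 in WT saline, 0.176 to 2.43 in WT ethanol, 0.443 to 1.11 in KO saline and 0 to 1.18 normalized CPM in KO ethanol libraries. The highest value was again WT ethanol replicate 4, and all groups overlapped. No Atf3 difference was detectable at this depth.

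Atf7 is a close relative of Atf2 that recruits chromatin-silencing enzymes. In normalized CPM it had its lowest group mean in WT saline mice, although the lowest single library was KO ethanol replicate 12. It was 12.7, 16.97 and 10.1 normalized CPM in WT saline, 21.5, 12.6 and 20.4 in WT ethanol and 25.4, 19.6 and 23.7 in KO saline libraries. Every KO saline library was above every WT saline library, whereas WT ethanol overlapped WT saline. This depended on the scale. In the deposited RPKM WT saline (1.57 to 2.55) and KO saline (2.37 to 2.94) overlapped. The WT saline mean there, 2.20, was above those of WT ethanol (1.98) and KO ethanol (1.84). KO ethanol replicates 10, 12 and 18 gave 26.3, 0 and 22.8, and the 0 of replicate 12 allows up to 5.01 CPM (3 counts). The log2 fold change of KO versus WT mice under saline was 0.81 (standard error 0.62, unadjusted p = 0.211, adjusted p = 0.476 in edgeR). Without KO ethanol replicate 12, which is in neither group of that contrast, the change was 0.81 and passed at an unadjusted p = 0.0324 (adjusted p = 0.172 in edgeR), as did 23.7% of all symbols.

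Jdp2 varied least of the 10 members relative to its mean on the RPKM scale. This depended on the scale, since in normalized CPM Atf2, at 63.6 to 141, varied less for its level than Jdp2, at 7.14 to 17.7. Jdp2 was 7.53, 12.3 and 12.3 normalized CPM in WT saline replicates 1, 3 and 13, and 14.6, 12.2 and 14.4 in WT ethanol replicates 4, 5 and 14. In KO mice it was 17.7, 7.14 and 10.5 under saline and 15.6, 11.7 and 14.8 after ethanol. The highest and the lowest of the 12 values both lay in KO saline, and the saline and ethanol groups overlapped in both genotypes. The log2 fold change after ethanol was 0.36 (standard error 0.41, unadjusted p = 0.398, adjusted p = 0.652 in edgeR) in WT and 0.29 (standard error 0.41, unadjusted p = 0.502, adjusted p = 0.999 in edgeR) in KO mice. The difference between these effects was -0.07 (standard error 0.58), so a genotype dependence of either sign remains within the error. KO versus WT mice differed by 0.14 (standard error 0.41) under saline and by 0.07 (standard error 0.42) after ethanol. Ranked by p among 14739 symbols, Jdp2 stood at 8999 in the WT and 7281 in the KO ethanol contrast.

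The single Jdp2 result that passed concerned 1 of its 3 transcripts. In the fit to transcripts, NM_001205052 rose in KO ethanol versus KO saline, with a log2 fold change of 1.09 (standard error 0.50, unadjusted p = 0.0488, adjusted p = 0.9998 in edgeR). Its mean was 3.96 ± 0.863 under saline and 7.97 ± 2.87 normalized CPM after ethanol (SD, n = 3). The groups did not overlap, at 2.97 to 4.51 and 4.81 to 10.4, though the 4.81 of KO ethanol replicate 12 rests on 2.94 estimated counts. In the deposited RPKM they did not overlap either, at 2.36, 1.65 and 2.28 under saline and 4.62, 3.64 and 5.67 after ethanol. The 3 transcripts (chromosome 12, mm10, ending at 85639878) have 4 exons each, share the other exons and the whole coding sequence of 489 bases, and differ only in a noncoding first exon. That exon is at 85599027 to 85599227 for NM_001205052, 85599416 to 85599614 for NM_030887 and 85600018 to 85600132 for NM_001205053. Only reads in a first exon can therefore tell them apart, and all 3 encode the same protein.

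The division of Jdp2 counts was constant in most libraries. NM_001205052, NM_001205053 and NM_030887 held 41.96%, 53.9% and 4.12% of the Jdp2 count in 9 of the 12 libraries, equal within 0.01 percentage points, in all 6 WT libraries among them. The transcripts' counts there are fixed parts of 1 sum and carry no information of their own. Of 3234 symbols with several transcripts and at least 5 counts in each library, 160 (4.95%) were as constant in 9 or more libraries. The exceptions were KO saline replicate 7, with 25.6% on NM_001205052, and KO ethanol replicates 10 and 18, with 55.6% and 70.6%. In counts, NM_001205052 had 61.4, 51.2 and 50.4 in KO saline replicates 7, 8 and 9 and 110, 2.94 and 165 in KO ethanol replicates 10, 12 and 18. Its share averaged 36.5 ± 9.46% among KO saline and 56.0 ± 14.3% among KO ethanol mice (SD, n = 3), a difference of 19.5 percentage points (exact permutation test, two-sided, p = 0.3, where 3 against 3 cannot go below 0.1). The call was lost in 9 of 12 fits without 1 library, among them those without KO ethanol replicate 18 (log2 fold change 0.86) or replicate 10 (1.07), and with length and GC trends removed (0.85).

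**Figure D3:**
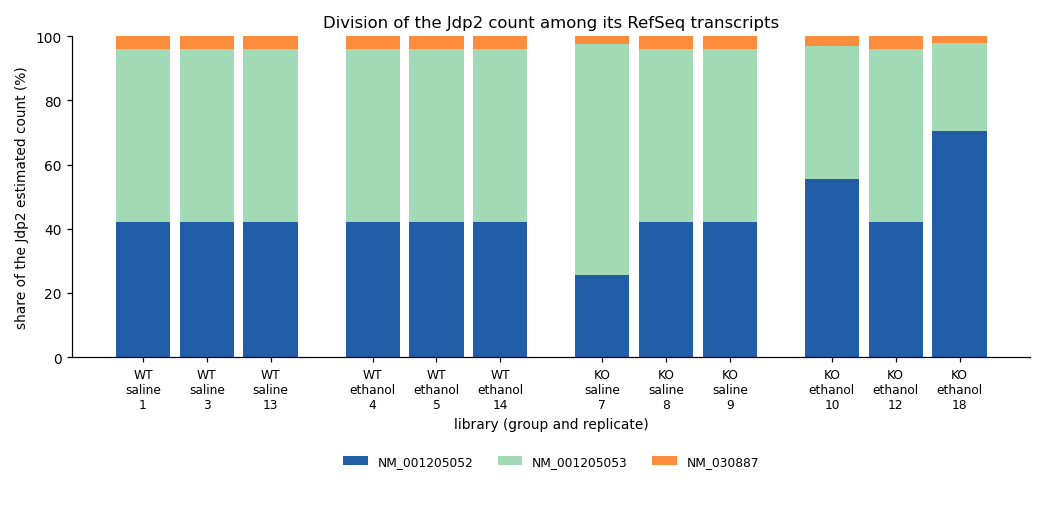
Share of the Jdp2 estimated count (vertical axis, percent) on each of its 3 RefSeq transcripts in the 12 libraries (horizontal axis). The bars are identical in 9 libraries, at 41.96% for NM_001205052, and differ in KO saline replicate 7 and KO ethanol replicates 10 and 18.

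Atf2, the member with the highest mean RPKM and a JNK and p38 substrate, had a steady sum but transcripts that moved apart. The sum was 141, 112 and 63.6 normalized CPM in WT saline, 104, 124 and 78.5 in WT ethanol, 85.4, 127 and 108 in KO saline and 82.8, 97.0 and 78.0 in KO ethanol libraries. All groups overlapped, and the log2 fold change after ethanol was -0.04 in WT and -0.32 in KO mice (standard error 0.35 in both). Of 18 member transcripts tested, 5 passed in WT ethanol versus saline (18.2% of all 21715 transcripts did), 2 in KO ethanol versus saline (2.99%) and 3 in KO versus WT mice under saline (19.1%). After ethanol 2 passed between genotypes (3.29%), and 3 passed in the interaction (15.3%). Transcripts of Atf2 made up 3, 1, 2, 2 and 2 of these.

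NM_001025093 held 2.54%, 0.701% and 16.8% of the Atf2 count in WT saline replicates 1, 3 and 13. It held 46.0%, 29.7% and 43.4% in WT ethanol, 22.4%, 42.3% and 41.2% in KO saline and 24.2%, 1.51% and 16.5% in KO ethanol libraries. Every WT saline library was below every WT ethanol and every KO saline library (exact permutation tests, two-sided, p = 0.1 each, the smallest that 3 against 3 allows). Fitted as counts, the transcript rose after ethanol by 2.80 (standard error 0.74, unadjusted p = 0.00204, adjusted p = 0.122 in edgeR) in WT mice and fell by 1.61 (standard error 0.71, unadjusted p = 0.0397, adjusted p = 0.9998 in edgeR) in KO mice on the log2 scale. The call in KO mice was lost without KO saline replicate 8 (-1.32) or 9 (-1.50), without KO ethanol replicate 12 (-1.27) or 18 (-1.62), without WT ethanol replicate 4 or 14 (-1.59 each) and with length and GC trends removed (-1.02). Under saline it was 2.78 higher in KO than in WT mice (standard error 0.74, adjusted p = 0.134 in edgeR). The interaction was -4.41 (standard error 1.02, unadjusted p = 0.000730, adjusted p = 0.194 in edgeR), and -3.62 without the 2 libraries named with L and -3.48 with length and GC trends removed, passing at an unadjusted p under 0.05 in both.

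NM_001284372, NM_001284373 and NM_001284374 moved the other way as a class. Their annotated counterpart has 12 exons and lacks 2 of the 14 exons of NM_001025093, of 179 and 115 bases, at 73846197 to 73846375 and 73845439 to 73845553 of chromosome 2 (mm10). Together they held 77.4%, 89.4% and 57.7% in WT saline, 30.8%, 52.3% and 20.9% in WT ethanol, 48.1%, 38.0% and 36.0% in KO saline and 44.8%, 78.2% and 45.7% in KO ethanol libraries. The summed share in WT saline again did not overlap that in WT ethanol or KO saline. NM_001284374, taken alone, fell by 2.61 after ethanol in WT mice (standard error 0.94, unadjusted p = 0.0148, adjusted p = 0.196 in edgeR), with an interaction of 4.08 (standard error 1.32, unadjusted p = 0.00813, adjusted p = 0.221 in edgeR). Its groups overlapped, with 2.02 to 35.3 normalized CPM in WT saline and 2.09 to 4.29 in WT ethanol libraries, and WT saline replicate 13 was the lowest of these 6. Without WT saline replicate 1 the WT change was -1.74 and no longer passed. In KO ethanol replicate 12, the shallowest library, it held 38.6% of the Atf2 count, against 4.47% and 7.91% in replicates 10 and 18, and without replicate 12 the interaction was 2.70 and passed. This class was put together after its values were seen, so it has no test, and all Atf2 models examined share a 3′ exon and most of their sequence, so their counts are estimates. The libraries also differed in how long transcripts fared. The median log2 deviation of symbols of at least 4000 bases minus those of at most 1500 bases was -1.48, -0.09 and -0.68 in WT saline and -1.07 in KO ethanol replicate 12, against 0.06 to 0.83 in the other 8 libraries. NM_001025093 was at its lowest shares in those 4 libraries together with KO ethanol replicate 18 (16.5%, 0.31). The part of transcript length in these shares was not tested. The fit with trends removed cannot test it, because NM_001025093 (4210 bases, 40.5% GC) and the class (3943 bases, 40.2% GC) are scaled almost alike.

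**Figure D4:**
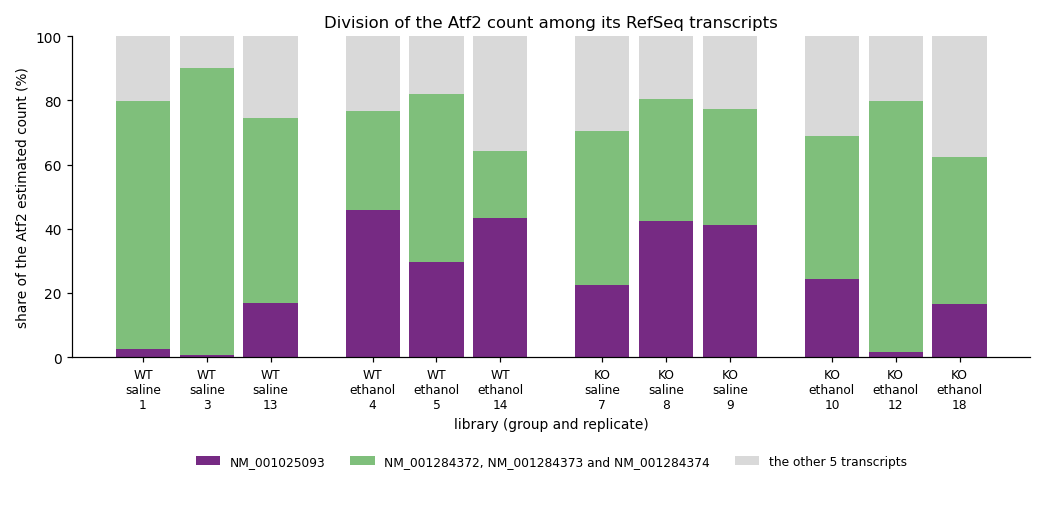
Share of the Atf2 estimated count (vertical axis, percent) on NM_001025093, on the class of 3 transcripts that lacks 2 exons, and on the other 5 transcripts, in the 12 libraries (horizontal axis). NM_001025093 is at 0.701% to 16.8% in the WT saline libraries and at 1.51% and 16.5% in KO ethanol replicates 12 and 18, and at 22.4% to 46.0% in the other 7.

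The Atf7 count was also divided unevenly across libraries. NM_001310066 held 9.59%, 10.3% and 10.3% of the Atf7 count in WT saline, 37.1%, 10.3% and 43.0% in WT ethanol and 15.2%, 28.2% and 23.4% in KO saline libraries. KO ethanol replicates 10 and 18 gave 10.1% and 14.7%, and no Atf7 count was found in replicate 12. KO saline lay above WT saline without overlap. The transcript rose by 2.23 after ethanol in WT mice (standard error 0.81, unadjusted p = 0.0159, adjusted p = 0.198 in edgeR), and its interaction was -3.21 (standard error 1.11, unadjusted p = 0.0120, adjusted p = 0.229 in edgeR). With length and GC trends removed, the WT change was 1.38 and no longer passed, and the call was also lost without WT saline replicate 13 (2.02) or WT ethanol replicate 14 (1.79). The gene also spans a long noncoding RNA, and whether the authors' counting used strand is not stated.

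Genes around AP-1 were described through 5 lists. Of all symbols, 9.99% were higher and 8.36% lower in WT ethanol versus saline, 1.15% and 2.01% in KO ethanol versus saline, 9.14% and 10.5% in KO versus WT mice under saline, 0.977% and 2.26% after ethanol, and 7.5% and 7.67% in the interaction. Of 14 tested genes known as AP-1 targets, 3 were higher and 1 lower in WT ethanol versus saline, with a median log2 fold change of 0.13. Hrk, a pro-apoptotic BH3-only gene induced through Jun in dying neurons, rose from 18.6 ± 2.50 to 61.3 ± 39.3 normalized CPM (log2 fold change 1.71, standard error 0.57, adjusted p = 0.203 in edgeR). Penk, the enkephalin precursor, rose from 16.4 ± 15.8 to 105 ± 83.7 (2.65, standard error 0.85, adjusted p = 0.198 in edgeR), and Vegfa, the vascular growth factor, from 20.3 ± 8.01 to 49.9 ± 14.97 (1.31, standard error 0.54, adjusted p = 0.232 in edgeR). Timp1, a metalloproteinase inhibitor, fell from 3.09 ± 3.81 to 0.631 ± 0.314 (-2.38, standard error 1.00, adjusted p = 0.238 in edgeR). The WT saline and WT ethanol libraries overlapped for Hrk (15.9 to 20.9 and 19.7 to 97.7). They also overlapped for Penk (5.66 to 34.5 and 18.3 to 185) and Timp1 (0 to 7.35 and 0.278 to 0.878). They did not overlap for Vegfa (12.9 to 28.8 and 38.6 to 66.9).

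Penk also rose in KO mice, from 9.25 ± 7.02 to 41.0 ± 23.6 (2.10, standard error 0.85, unadjusted p = 0.0264, adjusted p = 0.999 in edgeR), as 1 of 14 targets. The KO groups overlapped, at 4.74 to 17.3 and 14.6 to 60.2. Penk is abundant in striatal projection neurons, whose summed markers were 148 to 163 in WT saline, 109 to 923 in WT ethanol, 97.0 to 229 in KO saline and 159 to 433 normalized CPM in KO ethanol libraries, and their part was not tested. Under saline 3 targets were higher in KO than in WT mice (Hrk by 1.32, Vegfa by 1.63 and the neuropeptide gene Nts by 3.47 on the log2 scale) and 2 lower (Timp1 at -2.32 and the filament gene Vim at -1.53). WT saline and KO saline overlapped for Nts (1.54 to 10.3 and 3.61 to 102) and Vim (60.2 to 236 and 33.0 to 63.2). Timp1 overlapped too (0 to 7.35 and 0.0877 to 1.18). They did not overlap for Hrk (15.9 to 20.9 and 21.9 to 71.1) or Vegfa (12.9 to 28.8 and 38.4 to 103). The median log2 fold change of the 14 in this contrast was -0.67, beside 0.04 over all symbols. The interaction held 1 higher (Plaur, 2.41, standard error 1.09, adjusted p = 0.319 in edgeR) and 1 lower (Hrk, -2.14, standard error 0.79, adjusted p = 0.266 in edgeR). Plaur was low, at 1.29 to 3.60 normalized CPM in WT saline and 0.649 to 1.05 in WT ethanol libraries. It was 0.410 to 1.05 in KO saline and 1.21 to 6.69 in KO ethanol libraries. In KO ethanol replicate 12, 4 counts equal 6.69 normalized CPM. After ethanol no target passed between genotypes.

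Of 13 immediate early genes outside AP-1, 1 rose in WT mice after ethanol. Arc, a synaptic gene induced by activity, went from 1.90 ± 1.10 to 6.64 ± 3.22 (log2 fold change 1.93, standard error 0.64, adjusted p = 0.203 in edgeR). Arc was also higher in KO than in WT mice under saline, at 5.97 ± 3.00. Egr1, the member of this list most often measured together with Fos, was 23.0 in WT saline and 28.5 in WT ethanol libraries and did not pass. In KO mice Nr4a3, an orphan nuclear receptor, fell after ethanol from 100.8 ± 56.7 to 47.6 ± 16.4 (-1.05, standard error 0.46, adjusted p = 0.999 in edgeR). The KO groups overlapped, at 35.5 to 138 and 31.8 to 64.4. Nr4a3 was also lower after ethanol in WT mice, at 32.8 ± 10.4 against 63.6 ± 5.27, without overlap. The WT change was -0.96 (standard error 0.46, unadjusted p = 0.0573, adjusted p = 0.285 in edgeR) and did not pass. Klf4, a zinc finger factor, was lower in KO (1.57 ± 1.47) than in WT mice (5.95 ± 2.55) after ethanol. The KO ethanol libraries ran from 0 to 2.92 and the WT ethanol libraries from 3.51 to 8.61. In KO ethanol replicate 12, 3 counts equal 5.01 normalized CPM, above the lowest WT ethanol value. Nr4a3 and Klf4 were each the 1 of 13 that passed, in KO ethanol versus saline and in KO versus WT mice after ethanol. No gene of the list passed in the interaction.

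Of 23 kinases upstream of AP-1, Map3k13 rose in WT mice after ethanol, from 3.46 ± 1.58 to 8.52 ± 0.799 (log2 fold change 1.30, standard error 0.51, adjusted p = 0.221 in edgeR). Map3k13 encodes LZK, a kinase that feeds JNK in neurons. It was also higher in KO than in WT mice under saline (11.4 ± 3.93), where Mapk3, the kinase ERK1, was lower (190 ± 42.1 against 330 ± 124), and its interaction was -1.78 (standard error 0.71). Among 22 tested other bZIP factors, Mafg rose in WT mice after ethanol (1.53) and was higher in KO mice under saline (1.79), and Creb1, the CRE-binding activator, fell in KO mice after ethanol from 76.4 ± 39.5 to 28.9 ± 7.63 (-1.37, standard error 0.42, adjusted p = 0.999 in edgeR). In the interaction Ddit3 passed as higher (1.39, standard error 0.61) and Creb1 (-1.31) and Mafg (-1.59) as lower. Ddit3 was 14.9 to 22.8 normalized CPM in WT saline and 7.64 to 15.6 in WT ethanol libraries, which overlapped. It was 10.03 to 12.6 in KO saline and 12.9 to 31.8 in KO ethanol libraries. Of 20 regulators of AP-1 expression and stability, Dusp5, a nuclear ERK phosphatase, was higher in KO mice under saline (1.24 ± 0.395 against 0.173 ± 0.3002), and no other passed in any contrast. Dusp5 was near the limit of detection, at 0 to 0.520 normalized CPM in WT saline and 0.885 to 1.67 in KO saline libraries. Map3k13, Mafg, Arc, Hrk, Vegfa and Timp1 passed in both WT ethanol versus saline and KO versus WT mice under saline, which share the WT saline libraries. By group means, WT saline was the highest of the 4 groups for Timp1, with libraries from 0 to 7.35 normalized CPM, and the lowest for the other named genes.

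By the pattern of log2 normalized counts over the 12 libraries, the symbols most like Jdp2 among 11604 were Ppp5c, Cox15 and Dpysl4 (Pearson's r 0.92, 0.91 and 0.90). Those most like Fos among 11605 were Prkch, Sh3bgrl2 and Tor1aip1 (0.93, 0.91 and 0.90). The points share library depth, length and GC trends, and these values are a description.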

How the data were processed

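Stranded total RNA-Seq of 12 libraries was used. The authors filtered reads by quality, aligned them to mm10 with TopHat (Bowtie2), and used Partek Flow to quantify RefSeq transcripts. Its version and strand setting are not given in the sources used here. The authors deposited estimated counts per transcript, with fractions where reads were divided among transcripts, and RPKM values, which are quantile normalized judging by their values. No library was pooled. Groups came from the sample labels, and replicate numbers are library numbers. Laser microdissection and hole punching were both used, and which library had which was not worked out here.

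Counts were summed per symbol, rounded and fitted by the quasi-likelihood method of edgeR 4.0.16 under R 4.3.3, after its standard filter on low counts and TMM scaling, with 1 mean for each group. All p-values are two-sided, and Benjamini-Hochberg adjustment ran over all 14739 symbols (21715 transcripts) of a contrast, and "passed" means an unadjusted p under 0.05. No separate litters or cages are named, so p-values measure the spread between these libraries. Totals of 719735 to 17066392 set the precision. Limits from 0 counts use 3 counts and cover counting error only. Normalized CPM are counts per 1000000, that is, counts divided by the TMM-scaled library size. Transcript shares were compared by exact permutation. GENCODE M21 gave lengths, GC content and exons, and RefSeq the promoter sequences (Python 3.11.15, numpy 2.4.6, pandas 2.3.3, matplotlib 3.10.9).

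The alternatives were DESeq2 1.42.0, library size without TMM factors, 2 other count filters, limma 3.58.1 on log2(RPKM + 1) and log2(RPKM + 0.1), the most abundant transcript in place of the sum, the first letter of the library name as a covariate, omission of the 2 L libraries, a fit to just the groups compared, removal of length and GC trends, and each library left out. For transcripts, the last 2 and the omission of the L libraries were chosen after seeing the data. Simulated counts with known changes were used to check the fits. The genes named were all 10 members and, from each of the 5 lists, at most 3 symbols with the smallest p in a contrast. The members, lists and 9 sets of cell type markers were chosen with earlier results of these data known, and 1 blood cell marker is not reported here and was left out of its sum. The summed markers of the sets not given with the results were 224 to 903 normalized CPM for cortical interneurons, 179 to 644 for the oligodendrocyte lineage, 61.2 to 244 for microglia and 65.8 to 174 for endothelial cells.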

Additional observations from a re-analysis of the deposited data

Results flagged for a closer look

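The ethanol effects of the genotypes differed, by the interaction test of edgeR at an unadjusted p under 0.05, for 3 of 18 member transcripts, against 15.3% of all 21715 transcripts, so the members' share was near the background. The interaction was -4.41 on the log2 scale for Atf2 NM_001025093, 4.08 for Atf2 NM_001284374 and -3.21 for Atf7 NM_001310066. The adjusted p-values were 0.194, 0.221 and 0.229. All 3 passed in each of the 12 fits that left out 1 library, with ranges of -5.50 to -3.92, 2.70 to 4.69 and -3.70 to -2.77. No member passed this test as a sum over its transcripts.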

How the results depend on the processing

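In WT ethanol versus saline 1 member passed (18.3% of all symbols). It was 2 without TMM factors (Fos, Jun, 20.3%), 2 with at least 1 count in any library (Fos, Fosb, 16.5%), 2 without the L libraries (Fos, Fosb, 37.3%), 2 with length and GC trends removed (Fos, Fosl2, 16.9%) and 2 with the most abundant transcript per member (Fos, Atf2, 18.2% of transcripts), and 0 to 3 when 1 library was left out (9.505% to 31.7%). With at least 10 counts in every library it was 1, but that was Jun (1.15, unadjusted p = 0.0371, adjusted p = 0.224 in edgeR), among 3 members tested without Fos. The Atf2 transcript taken as most abundant was NM_001025093. It had 19.4, 1.52 and 144 counts in WT saline and 842, 398 and 194 in WT ethanol. That choice depends on the groups compared, so its calls in this setting are no further support. In KO ethanol versus saline the number of members was 0, and 1 with transcripts (2.99% of all transcripts). In KO versus WT mice under saline it was 0, and 1 without the L libraries (39.2% of all symbols) and 1 with transcripts (19.1%). It was 0 to 1 there with 1 library left out (11.0% to 33.6% of all symbols). After ethanol it was 0, and 1 without the L libraries (6.35%) and 1 with transcripts (3.29%). In the interaction it was 0, and 1 without TMM factors (15.6%) and 1 with transcripts (15.3%). Among member transcripts the counts without 1 library were 3 to 6, 0 to 2, 1 to 3, 0 to 2 and 3 to 4 in the 5 contrasts. In KO ethanol versus saline the count was 1 with trends removed. The shares of all transcripts in these fits are not given, so these counts cannot be set against a background.

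The Fos change in KO mice turned to -0.12 without the L libraries and was -0.10 to 0.50 with 1 library left out. Jdp2 turned in KO versus WT mice under saline, to -0.20 and -0.24 with limma on log2(RPKM + 1) and log2(RPKM + 0.1), and was -0.31 to 0.40 with 1 library left out. After ethanol it was -0.042 with trends removed and -0.013 to 0.16 with 1 library left out. The Jdp2 interaction was 0.35 and 0.41 with limma, and -0.34 to 0.41 with 1 library left out. The cause was not tested. The Jund level was 23.3 in normalized CPM per annotated kilobase, which changes scale and length at once. Without TMM factors the median of all symbols shifted by 0.44 in WT ethanol versus saline and 0.45 in KO versus WT mice under saline.

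KO ethanol replicate 12 limits every KO ethanol value, since 3 counts there equal 5.01 normalized CPM, above the level of Fos in most libraries. No paired analysis was possible because the groups share no replicate number.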
